A study of Mus musculus with 12 samples.

Results

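The genes described here encode the nuclear-encoded subunits of the mitochondrial respiratory chain and the ATP synthase, read in 12 RNA-seq libraries of sorted mouse invariant natural killer T cells of type 1 (iNKT1). Members were the rows of the deposited table whose symbol starts with Nduf, Uqcr, Atp5 or Cox and a digit, or is Sdha, Sdhb, Sdhc, Sdhd or Cycs, with pseudogenes dropped. This gave 98 genes of 14004. They comprise 36 subunits of complex I, 4 of complex II, 8 of complex III, 15 of complex IV, 16 of complex V and cytochrome c. The same name rule takes in 8 assembly factors of complex I, 9 of complex IV and the coupling factor Atp5s. It leaves out Cyc1, a subunit of complex III, and Usmg5, a subunit of complex V, so that sums by complex cover the members only. Another 5 annotated genes under the rule (Cox4i2, Cox7b2, Cox8b, Cox8c and Ndufa4l2) were not analysed here.

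The cells were sorted from thymus and from liver as binding CD1d tetramer, which presents the lipid antigen of these T cells, and as positive for a YFP reporter. Control cells carried Tbx21Cre and the Rosa26-YFP reporter, and conditional knockout (cKO) cells carried Tbx21Cre, Ets1F/F and the same reporter. Cre is driven by Tbx21, the gene of T-bet, so that both the reporter and the deletion mark cells that have expressed Tbx21, and the control cells carry the Cre too. Both genotypes were sampled in both tissues, which gives 4 groups of 3 libraries. The 3 are called independent replicates, but the age of the mice and whether each library came from a mouse of its own are not stated, so that p-values reflect how much these samples differ among themselves, part of which may be technical. In bulk RNA, fewer cells of a kind and less RNA per cell cannot be told apart.

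The respiratory chain passes electrons from NADH (complex I) and succinate (complex II) through ubiquinone to complex III, on to cytochrome c, and then to oxygen at complex IV, and complex V (ATP synthase) uses the proton gradient so formed to make ATP. Most subunits are encoded in the nucleus and imported, while a small core set is made inside the mitochondrion from its own DNA. In T cells, respiration is known to sustain resting and memory states, and promoters of nuclear subunit genes are known targets of NRF1, YY1 and the ETS-family factor GABP, whose DNA-binding subunit Gabpa recognises the same GGAA-centred core as Ets1.

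Because the deleted gene encodes an ETS factor, the promoters of the members were searched for an ETS core (CCGGAAG on either strand) in RefSeq windows of 250 bases before to 50 bases after the gene start (GRCm38.p6). A window matched for 82 of the 98 members, and 23 of them (28%) held the core, against 21% of 9516 genes of the table with a window and 9.93% of all 27025 genes with one. The 8-letter NRF1 motif GCATGCGC was in 13 members (15.9%, against 6.17% and 3.05%) and the YY1 motif AAGATGGC in 13 (15.9%, against 5.49% and 3.19%), both strands searched. Each motif was counted whether or not another was present, and an ETS core and a YY1 motif can share the letters AAG. By role, the ETS core was in 4 of 32 complex I subunits with a window, 2 of 3 of complex II, 2 of 5 of complex III, 3 of 12 of complex IV, 5 of 14 of complex V, 2 of 7 factors of complex I and 5 of 7 of complex IV. These counts describe letters and not sites bound by a factor.

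The stretches below are a selection from the members that hold an ETS core and whose levels are described further on, with Cycs for NRF1. Other such members are not printed, among them Ndufs8, Ndufaf1, Cox10 and Cox14. Of these, Ndufs8 and Cox14 had a lower mean in cKO than in control thymus, and Cox10 was lower in every cKO liver library. The printed stretches thus do not represent all members with a core. They run 5′ to 3′ on the strand of the gene, with the motif in capitals (CTTCCGG is the core read from the other strand).
Ndufs3: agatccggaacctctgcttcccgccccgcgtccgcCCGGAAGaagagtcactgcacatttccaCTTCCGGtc
Ndufb7: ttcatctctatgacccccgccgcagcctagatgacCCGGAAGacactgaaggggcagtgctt
Sdhd: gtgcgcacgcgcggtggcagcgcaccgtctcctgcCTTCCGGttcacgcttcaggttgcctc
Uqcrh: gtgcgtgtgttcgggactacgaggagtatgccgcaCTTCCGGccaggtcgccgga
Cycs: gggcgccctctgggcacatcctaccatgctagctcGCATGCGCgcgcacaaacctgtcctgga
Cox6a1: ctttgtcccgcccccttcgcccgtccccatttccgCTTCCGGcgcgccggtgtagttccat
Cox8a: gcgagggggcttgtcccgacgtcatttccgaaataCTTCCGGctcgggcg
Atp5h: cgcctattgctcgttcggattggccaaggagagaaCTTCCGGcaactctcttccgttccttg
Atp5e: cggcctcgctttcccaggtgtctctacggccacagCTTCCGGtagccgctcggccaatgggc
They lie at chr2:90904712-90904783 (minus strand) for Ndufs3, chr8:83566703-83566764 (plus) for Ndufb7, chr9:50603869-50603930 (minus) for Sdhd, chr4:116075061-116075115 (minus) for Uqcrh and chr6:50566602-50566664 (minus) for Cycs. Those of the other four lie at chr5:115348949-115349009 for Cox6a1, chr19:7217607-7217656 for Cox8a, chr11:115419931-115419992 for Atp5h and chr2:174464177-174464238 for Atp5e, all on the minus strand. Counted from the RefSeq gene start, the core starts 46 bases before it in Sdhd, 38 in Atp5h, 20 in Ndufb7 and 16 in Cox6a1. The distance is 10 in Uqcrh, 5 in Cox8a and 102 in Atp5e, and 60 for the NRF1 motif in Cycs. Gene coordinates given further on come from another annotation, and the cores of Cox6a1 and Atp5h lie inside them. Ndufs3 has 2 cores within its stretch.

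Values are the deposited expression values, a read number per gene adjusted by library size, given as such. Whole reads behind them were recovered from the steps in the values. They came to 18.5 to 43.4 M per library in 10 libraries, 3.87 M in control liver library 3 and 3.21 M in cKO liver library 2, where 1 read is worth 6.06 and 6.66 value units. Ets1 itself was at 23692, 28051 and 19493 (control thymus) and 11817, 7069 and 5788 (cKO thymus), and in liver at 18773, 18528 and 15910.2 (control) and 3594, 4425 and 5787 (cKO), lower in every cKO library than in every control library. Over both tissues it fell by 1.78 on the log2 scale (SE 0.19, limma adjusted p = 3.91e-05). All 8 T and iNKT cell markers were present in all groups, with summed values between 115311 and 163128 per library. Hepatocyte markers (5 of 6 in the table) summed to 762 to 1776 in liver libraries and at most 432 in thymus libraries. The list set for immature thymocytes (5 of 7 in the table: Cd8a, Cd8b1, Cd4, Rag1 and Dntt) summed in thymus to 1769 to 7393 (control) and 312 to 1304 (cKO). In liver it summed to 6608 to 9078 (control) and 579 to 1999 (cKO). The highest sum was in a control liver library, so this list does not mark thymocytes alone. Myeloid markers (4 of 5) summed to 643 to 731 in cKO liver and 12.8 to 456 in control liver. Whether cells of other types had a part in the member values was not tested.

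Levels of the tested members ranged widely, from 20.4 per kilobase of exon for Atp5l. Length here is that of all annotated exon bases of a gene together, so that levels per kilobase also depend on the annotation. Per kilobase, the mean value over the 12 libraries was highest for Atp5b, the catalytic beta subunit of ATP synthase (4525 per kb), followed by the complex IV subunits Cox6a1 (4397) and Cox8a (2454) and by Atp5c1, the gamma subunit of the rotor stalk (2202). The highest of complex I were Ndufa13 (1542), an accessory subunit, and Ndufa1 (1095). Sdhd (987), a membrane anchor, and Sdha (896), the flavoprotein that oxidises succinate, led complex II. Uqcr10 (1675) and Uqcrh (1415), small subunits of complex III, led theirs. The median per kilobase was 846.6 in complex IV, 637 in complex V, 593 in complex II, 448 in complex III and 311 in complex I, and 131 and 86.7 in the assembly factors of complexes I and IV. Cycs stood at 113. Of the 98 members, 30 had a mean value of at least 1000 and 8 a mean under 100. Cox6b2, the testis form of a complex IV subunit, and Cox7a1, the heart and muscle form of another, did not reach a value of 10 in 3 libraries and were not tested, which left 96.

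**Figure D1:**
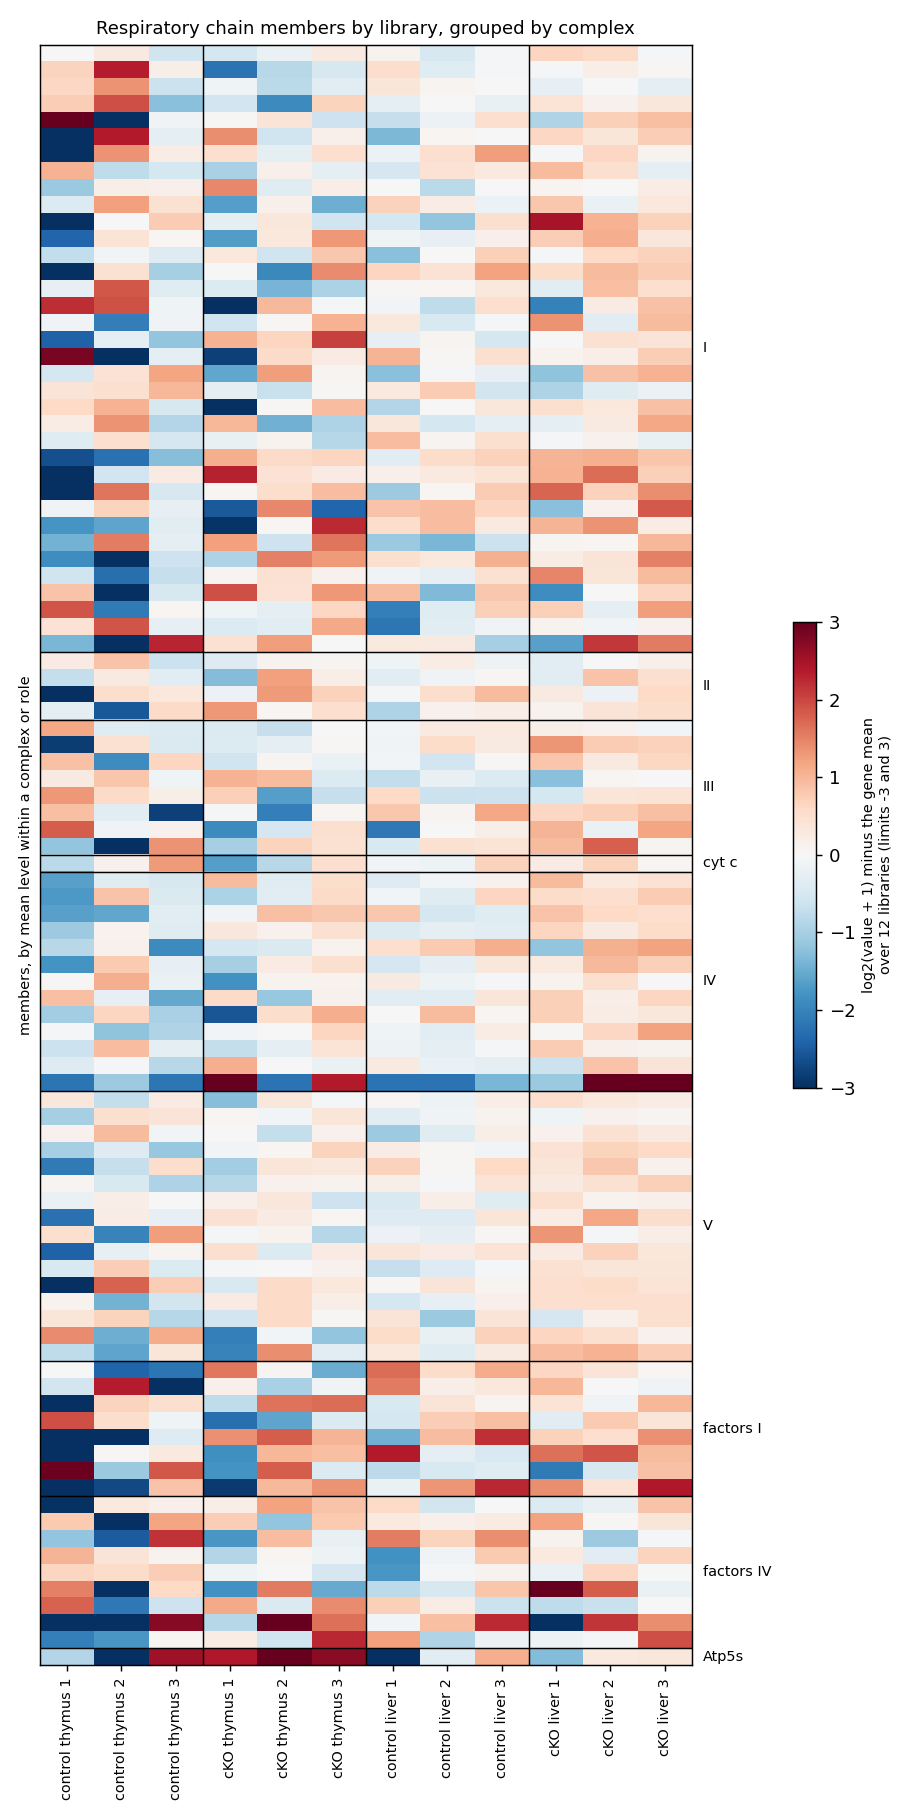
Each row is 1 of the 96 tested members, grouped by complex or role and ordered by mean level within it, and each column is 1 library. Colour gives log2(value + 1) minus the mean of that gene over the 12 libraries, with the scale ending at -3 and 3. Liver libraries on the right are paler within a group than the control thymus libraries on the left, where the same gene is often high in 1 library and low in another.

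In liver cells, most members stood a little higher in cKO than in control cells, but none passed the test. With limma, 0 of 96 members passed an adjusted p of 0.05, where 0.505% of the 13058 genes tested did. The count was 1 higher and 0 lower at an unadjusted limma p under 0.05, against 3.43% and 3.49% of all genes. That member was Cox6a2, which passed the filter on low values through cKO libraries only. On the recovered reads edgeR and DESeq2 called 0 members (0.299% and 2.17% of all genes). The log2 fold change of value + 1 was above 0 for 75 of 96 members, against 51.5% of all tested genes, and its median was 0.45, against 0.02 over all tested genes. For 20 members (20.8%) all 3 cKO libraries lay above all 3 control libraries, where 9.99% of all genes did so, and for 2 members (2.08%) all lay below, against 8.66%. Members share libraries, so these counts are not independent observations.

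Of those 20 members, 8 belong to complex I (Ndufa3, Ndufa12, Ndufb4, Ndufb7, Ndufb8, Ndufs1, Ndufs3, Ndufs6), 2 to complex III (Uqcr10, Uqcrh), 4 to complex IV (Cox5a, Cox6a1, Cox6a2, Cox7c) and 6 to complex V (Atp5b, Atp5h, Atp5j2, Atp5l, Atp5mpl, Atp5o). None was an assembly factor. Cox6a2 is among the 20 on values of at most 0.8 in control liver and 1.2 in its lowest cKO liver library. The 2 in the other direction were Ndufa10, an accessory subunit of complex I, and Cox10, which makes the haem of complex IV. By complex, the liver fold change was above 0 for 27 of 36 subunits of complex I, 2 of 4 of complex II, 7 of 8 of complex III, 12 of 13 of complex IV, 15 of 16 of complex V and 11 of 18 assembly and coupling factors. Medians were 0.49 for complex I, 0.22 for II, 0.50 for III, 0.61 for IV, 0.39 for V and 0.28 for the factors. The number above 0 lay between 69 and 81 over 24 alternatives, and the median between 0.33 and 0.49. Without the 2 shallow libraries, 69 members were above 0, with a median of 0.45. In the 48 members above the median level the fold change was above 0 in 40, and in the 48 below it in 35.

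**Figure D2:**
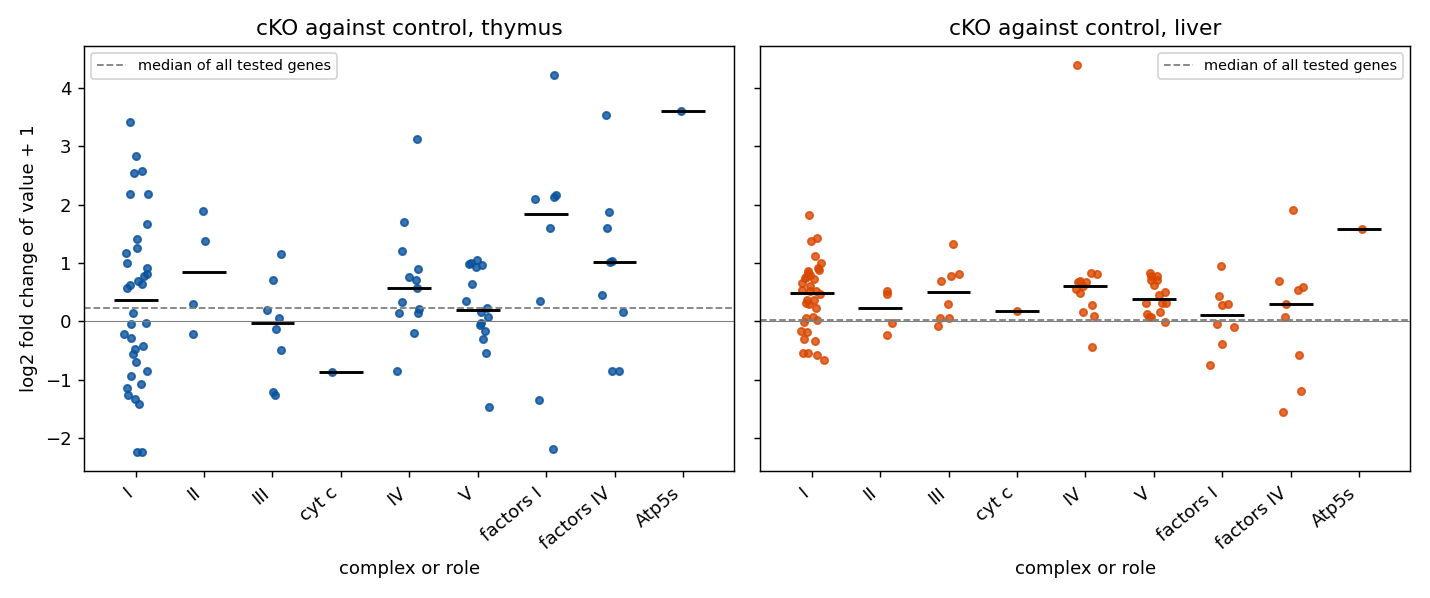
Each point is 1 tested member, placed by complex or role, and the vertical axis is the log2 fold change of value + 1, cKO against control, in thymus on the left and in liver on the right. Black bars are medians, and the dashed line is the median of all tested genes (0.24 in thymus, 0.02 in liver). The points are more widely scattered in thymus, and in liver most points of complexes III, IV and V lie above the dashed line.

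Summed over all members, the value per library was 96199.8, 92524 and 112120.0 in control liver and 128286, 127077 and 126309 in cKO liver. The 3 cKO libraries lay close together and above the highest control library. In thymus the sums were 98413, 118716 and 95636 in control and 83878, 104651 and 113742 in cKO cells, which overlapped. As a share of the column total, the sum was 0.350% to 0.479% in control liver and 0.480% to 0.595% in cKO liver. Mitochondrial ribosomal RNA, which is part of that total, took 28.5% to 33.1% of it in control liver and 23.2% to 31.2% in cKO liver. Without Atp5b the sums were 77183, 76171 and 91068 and 102322, 104232 and 105067, again without overlap. Complex IV summed to 14872, 14241 and 17812 in control liver and 21412, 21614 and 23037 in cKO liver. Complex III, without Cyc1, summed to 6833, 7509 and 8071 in control and 10108, 9255 and 9202 in cKO liver. Neither pair of groups overlapped. Complex V summed to 41684, 39711 and 49280.0 and 56838, 57170.3 and 52513, and complex I to 19477, 18436 and 22494 and 25982, 25994 and 26468, again without overlap. The 4 subunits of complex II summed to 5079, 6699 and 6258 in control and 5136, 6784 and 7259 in cKO liver cells, and these groups overlapped. No test was run on these sums, since the members were chosen with results known.

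**Figure D3:**
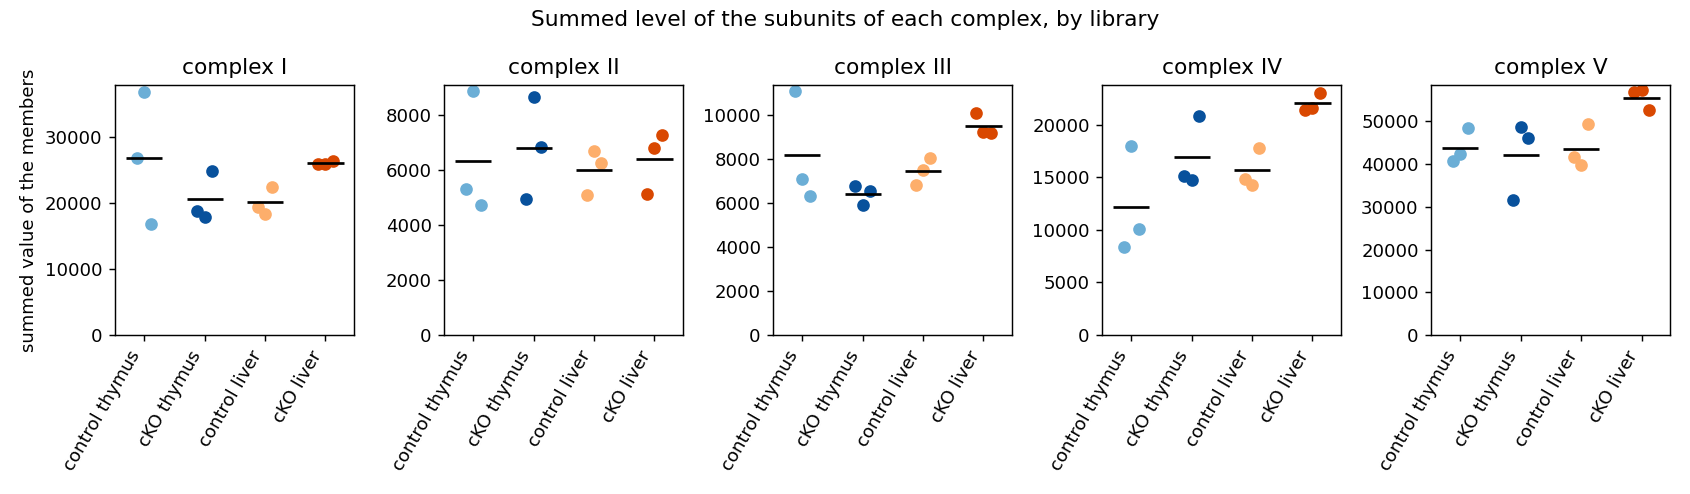
Points are the summed deposited values of the member subunits of each complex in 1 library, bars are group means, and each axis starts at 0. In complexes I, III, IV and V the 3 cKO liver libraries lie above the 3 control liver libraries, and in complex II they do not.

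In thymus cells the members pointed both ways. With limma 0 of 96 members passed (0.636% of all genes did), and edgeR on the recovered reads called 0 (0.391% of all genes). DESeq2 called 4 members and 5.13% of all genes. Ndufa2, Ndufs6 and Cox8a were among the 4, each higher in cKO. At an unadjusted p under 0.05, limma gave 9 higher and 2 lower, against 8.13% and 5.1% of all genes. All 3 cKO libraries lay above all 3 control libraries for 9 members (9.38%, against 7.6%) and below for 6 (6.25%, against 6.89%). These shares are near those of all genes. The fold change was above 0 for 61 of 96 members, against 57.7% of all genes, with medians of 0.34 and 0.24. Rescaling the columns by TMM factors moved the median over all genes from 0.24 to 0.00 and that of the members to 0.085, with 51 members above 0, and with edgeR and DESeq2 the members' medians were -0.015 and -0.040. With median-of-ratios factors it was 0.30. The edgeR and DESeq2 fits differ from limma in model and input as well as in scaling.

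Over both tissues, limma again called 0 members, against 2.27% of all genes, and edgeR called 0 (1.94% of all genes). At an unadjusted p under 0.05 there were 10 higher and 1 lower, against 8.02% and 5.67% of all genes, and 72 of 96 fold changes were above 0, against 56.9%. DESeq2 called 5 members, all higher in cKO (Ndufa2, Ndufs6, Cox6a1, Cox8a, Atp5h), and 6.27% of all genes. The smallest limma adjusted p among members was 0.114, for Cox8a. For the difference of the genotype effects between tissues, 0 members and 1 gene in all (0.00766%) passed limma, 2 members were at an unadjusted p under 0.05 in the positive direction and 0 in the negative (2.19% and 3.19% of all genes), and edgeR and DESeq2 called 0 members (0.023% and 0.894% of all genes). The difference was above 0 for 50 of 96 members (43.6% of all genes). A genotype effect that differs between thymus and liver was thus not shown for any member.

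Complex I takes electrons from NADH, through a matrix arm with flavin and iron-sulfur clusters. Ndufs6 (ENSMUSG00000021606, chr13:73319838-73328542, minus strand, GRCm38), an accessory zinc-binding subunit of that arm, was at 55.0, 72.9 and 142 in control thymus and 744, 520.5 and 544 in cKO thymus. In liver it was at 277, 513 and 563 in control and 706, 726 and 615 in cKO cells. The control thymus libraries were the 3 lowest of the 12, and the cKO libraries lay above the control libraries within each tissue. Its log2 fold change in thymus was 2.83 ± 0.78 (SE, limma adjusted p = 0.110). Without control thymus library 3, where 4.2% of all genes were called, it was 3.21 with a limma adjusted p of 0.0297. No other left-out library took this p under 0.05. Over both tissues the fold change was 1.74 ± 0.55 (limma adjusted p = 0.119). A 30-base stretch of its exons is shared with Mrpl36 on the opposite strand.

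Ndufa2, an accessory subunit with a thioredoxin-like fold, was at 80.7, 359.7 and 194 in control thymus and 911, 689.6 and 1825 in cKO thymus. The 2 groups did not overlap, and the fold change was 2.55 ± 0.76 (limma adjusted p = 0.140). In liver its values were 372, 466 and 304 and 438, 607 and 579, which overlapped. Ndufs3, a core subunit of the arm, was at 1.14, 172 and 307 in control thymus, so that 1 library was nearly empty of it, and at 1298, 349 and 306 in cKO thymus. In liver it was at 288, 317 and 346 and 534, 825 and 427, higher in every cKO library. The thymus fold change of 3.42 ± 1.38 (limma adjusted p = 0.289) was 1.17 without that library.

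Ndufb7, an accessory subunit facing the intermembrane space, had the smallest liver p of complex I, and was at 369, 234 and 739 in control liver and 2967, 1106 and 858 in cKO liver. The cKO libraries were all higher, with library 1 far above the others (limma adjusted p = 0.765). The most abundant subunits per length did not stand apart: Ndufa13 was at 2000.0, 1324 and 1811 in control liver and 2909, 2778 and 1781 in cKO liver, and Ndufa1 at 493, 267 and 322 and 317, 467 and 867, both with overlap. Ndufs8, an iron-sulfur subunit, was at 533, 1669 and 978 in control thymus and 225, 787 and 256 in cKO thymus, a fold change of -1.42 ± 0.66 (limma adjusted p = 0.368). For Ndufa8 the thymus fold change was 2.57 ± 1.13 (limma adjusted p = 0.328), from 48.2, 16.2 and 115 to 92.4, 509 and 432. Both pairs of thymus groups overlapped.

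Complex II, which is also the succinate dehydrogenase of the citric acid cycle, has no subunit encoded in mitochondrial DNA. Sdha was at 4262, 6420.1 and 2278 (control thymus) and 2735, 3833 and 3767 (cKO thymus), and in liver at 3261, 4141 and 3205 (control) and 2890.3, 3565 and 3983 (cKO). All 4 groups overlapped. Sdhd was at 880.4, 1018 and 1133 in control liver and 879.8, 1991 and 1529 in cKO liver. Sdhc, the other anchor, was at 26.9, 1048 and 900.0 in control thymus and 642, 1758 and 1178 in cKO thymus, where control library 1 was far below all others. Neither comparison separated its groups, and no member of complex II had an unadjusted p under 0.05 in any of the 6 comparisons.

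Complex III moves electrons from ubiquinol to cytochrome c. Uqcrh, the hinge protein at the cytochrome c contact, was at 1377, 2145 and 1775 in control liver and 3685, 2505 and 2387 in cKO liver, with the groups apart. In thymus it was at 205, 2033 and 1083 in control and 1105, 1213 and 1499 in cKO cells, so that the cKO liver libraries lay above all 9 others. Uqcr10 was likewise higher in every cKO liver library (1559.9, 1059.6 and 1339) than in every control liver library (826, 586 and 891), and overlapped in thymus. Limma adjusted p-values in liver were 0.999 for Uqcrh and 0.997 for Uqcr10. Uqcrfs1, the Rieske iron-sulfur protein, was at 1511, 917 and 689 in control thymus and 1007, 196 and 382 in cKO thymus, and Uqcrb at 53.9, 239 and 273 in control liver and 488, 208 and 548 in cKO liver. Both overlapped. Cycs, the soluble carrier between complexes III and IV, was at 192, 367 and 823 (control thymus) and 106, 188 and 477 (cKO thymus), and in liver at 317, 302 and 544 (control) and 402, 532 and 351 (cKO), and no pair of groups was apart.

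Complex IV, cytochrome c oxidase, reduces oxygen to water. Of its 13 tested subunits, 11 in thymus and 12 in liver had a fold change above 0. Cox8a (ENSMUSG00000035885, chr19:7215153-7217616, minus strand), a small membrane subunit in its general form, was at 422, 442 and 1049 in control thymus and 1235, 2427 and 2268 in cKO thymus. The groups did not overlap, and control thymus libraries 1 and 2 were the 2 lowest of all 12. In liver it was at 2289.7, 909 and 1018 and 2346, 1979 and 1845, where control library 1 stood among the cKO libraries. The thymus fold change was 1.70 ± 0.52 (limma adjusted p = 0.149). Over both tissues it was 1.19 ± 0.37 (limma adjusted p = 0.114). Without control thymus library 3, where 4.23% of all genes were called, it was 1.401 with a limma adjusted p of 0.0363. No other left-out library took this p under 0.05.

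Cox6a1 (ENSMUSG00000041697, chr5:115345642-115348981, minus strand), a regulatory subunit in its general form, was at 902, 2168 and 2001 in control thymus and 5389, 2174 and 4045 in cKO thymus. Its liver values were 2129, 2648 and 3041 in control and 5357, 3418 and 3769 in cKO cells. The cKO libraries lay above the control libraries in both tissues, in thymus by a margin of a few units. Its fold change over both tissues was 0.93 ± 0.30 (limma adjusted p = 0.125), with 1.199 ± 0.42 in thymus (limma adjusted p = 0.222). Cox7c, a small accessory subunit, was also higher in every cKO library than in every control library of the same tissue, at 659, 1513 and 1098 against 1806, 1538 and 1939 in thymus and 1068, 1165 and 1127 against 2220.2, 1706 and 2061 in liver (0.80 ± 0.31 over both, limma adjusted p = 0.249).

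Cox6a2 (ENSMUSG00000030785, chr7:128205435-128206387, minus strand), the heart and muscle form of the same subunit as Cox6a1, had the smallest liver p of all members. Its values were 0.021, 1.19 and 0.044 (control thymus) and 62.6, 0 and 23.5 (cKO thymus), and in liver at 0, 0 and 0.82 (control) and 1.15, 78.5 and 96.5 (cKO). These rest on few reads: 0, 1 and 0 (control) and 61, 0 and 32 (cKO) in thymus, and none (control) and 2, 13 and 112 (cKO) in liver. With 3 reads taken as the floor of each control liver library, its read share in cKO liver was at least 12.1-fold higher. This rests on cKO liver library 3: without it the 15 remaining reads give a ratio to that floor of 2.26, and the share in cKO liver library 1 is below the floor. In thymus the reads pooled over the libraries of a group were 93 (cKO) and 1 (control), a ratio of read shares of 80.1. Pooled reads do not measure the spread among libraries. There cKO thymus library 2 had 0 reads. The limma adjusted p was 0.568 in liver and 0.166 over both tissues.

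The whole of Cox6a2 lies inside the span of Itgad, an integrin gene on the opposite strand (chr7:128154376-128223816), and 70 of its 680 exon bases are also exon bases of Itgad. Itgad was at 0, 9.30 and 889 (control thymus) and 4784, 5805 and 2947 (cKO thymus), and in liver at 8.70, 0 and 13 (control) and 3400.2, 4295 and 3066 (cKO). It was thus high in the same 2 groups. The sources used here do not say whether counting used strand, and without it the reads of the 2 genes in this stretch cannot be told apart. Cox6a2 passed the filter on low values through cKO libraries only. In all, 26 members share exon bases with another gene of the table, 25 of them with one on the opposite strand, the widest being Cox20 with Hnrnpu, at 91.1% of its exon bases.

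Of the complex IV subunits with tissue forms, the general form held nearly all of the signal per length in every group. Cox6a1 made up at least 98.6% of Cox6a1 and Cox6a2, Cox6b1 at least 99.7% of the Cox6b pair, and Cox7a2 at least 91.6% of Cox7a1 and Cox7a2, the lowest value coming from control thymus, where Cox7a1 had a value of 72.9 in library 3 and under 0.1 in the other two. Ndufa4, first assigned to complex I and now counted with complex IV, was at 1270.1, 947 and 1018 in control liver and 1134, 1453 and 1055 in cKO liver, with overlap. Cox4i1, the general form of a regulatory subunit, was at 1696, 2065 and 2567 in control liver and 527, 2511 and 2765 in cKO liver, where library 1 was far below the other two. Cox7a2l, which takes part in joining complexes III and IV, was at 346, 1131 and 366 in control thymus and 121, 1034 and 1535 in cKO thymus.

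Complex V, the ATP synthase, carries the most abundant member. Atp5b was at 23028, 11204 and 21516 (control thymus) and 7489, 22924 and 17450.5 (cKO thymus), and in liver at 19017, 16353 and 21052 (control) and 25964, 22846 and 21242 (cKO). The liver groups were apart by a narrow margin, and in thymus 1 library of each genotype was low. Atp5h (ENSMUSG00000034566, chr11:115415689-115419962, minus strand), the d subunit of the peripheral stalk, was at 1282, 1952 and 1158 in control thymus and 2396, 2655 and 4005 in cKO thymus. The liver values were 2952, 2594 and 2393 in control and 3424, 4037 and 3839 in cKO cells. The groups did not overlap in either tissue. The thymus fold change was 1.04 ± 0.36 (limma adjusted p = 0.213) and 0.78 ± 0.26 over both tissues (limma adjusted p = 0.140). DESeq2 gave 0.76 over both tissues with an adjusted p of 0.0319.

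Atp5o, the stalk subunit OSCP, was at 738, 911 and 1151 in control liver and 1653, 1532 and 1546 in cKO liver, and Atp5mpl, a small subunit, at 412, 503 and 661 and 848, 846 and 844. Both were apart, and the 3 cKO values of each lay close together. Atp5e, the epsilon subunit, was at 277, 1513 and 1106 in control thymus and 1793, 1555 and 1349 in cKO thymus (0.89 ± 0.41 over both tissues, limma adjusted p = 0.331). Atp5c1 was at 1863, 3104 and 4476 in control liver and 4337, 5443 and 4764 in cKO liver, with overlap. The c ring of the rotor is encoded by 3 genes for the same mature protein. Per length, Atp5g3 held the largest share in each group, from 40.2% in control thymus to 68.0% in cKO thymus, with 63.4% in control liver and 56.8% in cKO liver. Atp5g1 held 35.9% (control) and 24.2% (cKO) in thymus and 20.9% (control) and 29.7% (cKO) in liver, and Atp5g2 the rest. These near-identical copies could share reads, and how such reads were counted is not stated.

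**Figure D4:**
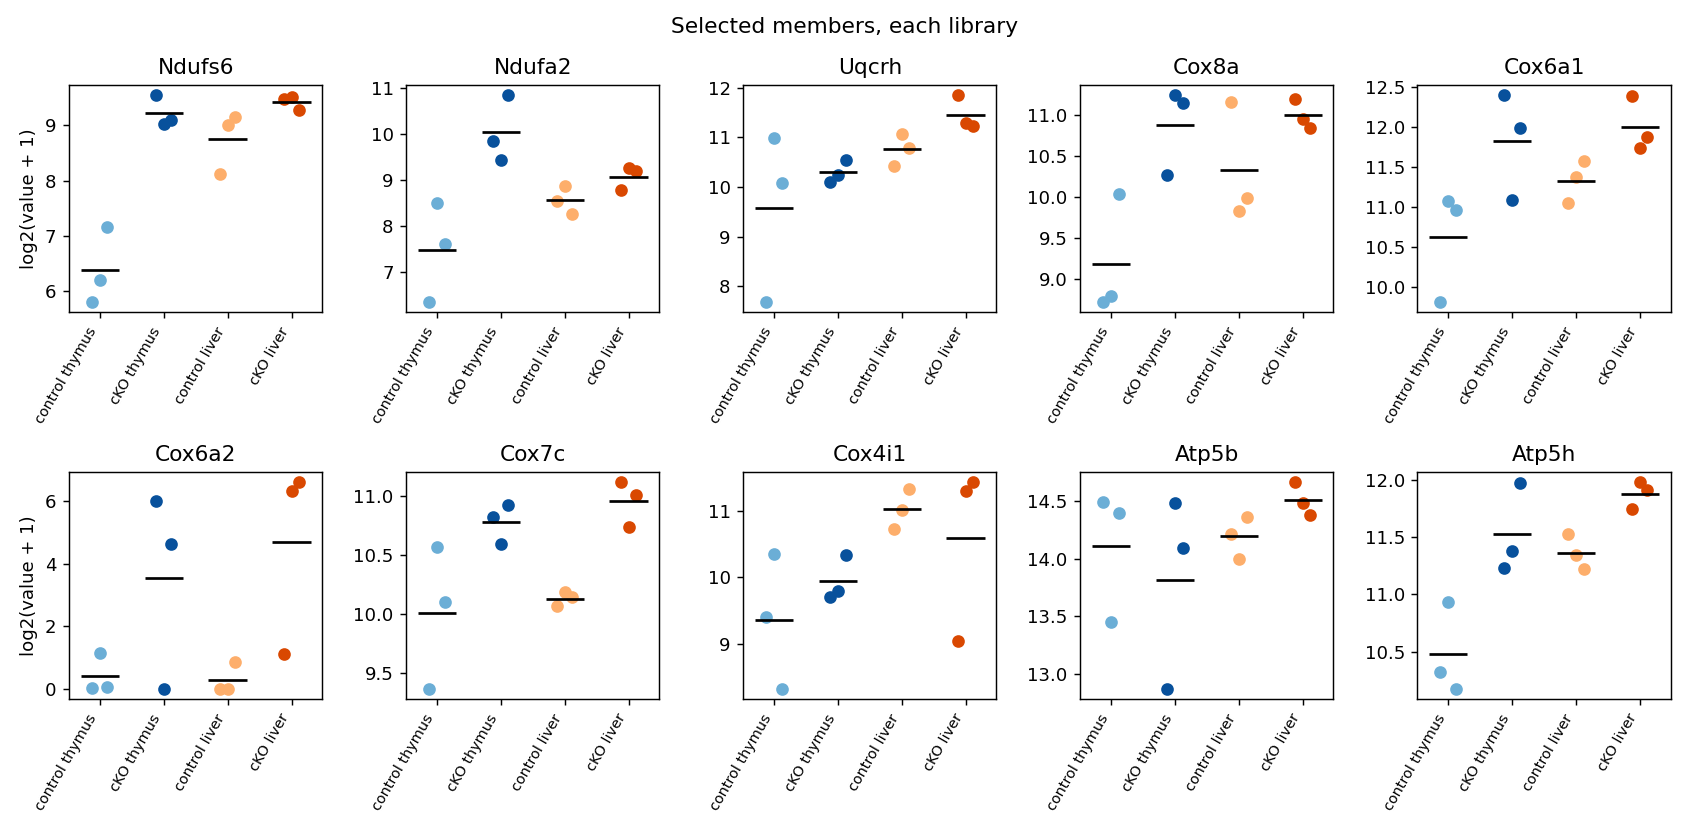
Points are log2(value + 1) in 1 library for 10 members, by group, with bars at the group means and an axis of its own for each gene. Ndufs6, Ndufa2, Cox8a, Cox6a1, Cox7c and Atp5h have their lowest mean in control thymus, and Cox6a2 has 1 low library in each cKO group.

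The assembly factors, which build the complexes and are not part of them, were scattered more widely. Ndufaf7, a methyltransferase of complex I assembly, was at 3.39, 13.9 and 102 in control thymus and 342, 471 and 270.4 in cKO thymus. The groups did not overlap, and the fold change was 4.23 ± 1.36 (limma adjusted p = 0.167). Without control thymus library 3, where 4.2% of all genes were called, the limma adjusted p was 0.0301. No other left-out library took this p under 0.05. In liver the 2 groups overlapped, at 47.8, 253 and 609.7 and 214, 187 and 343. Cox10 was at 1214, 660.0 and 1089.8 in control liver and 444, 195 and 397 in cKO liver, lower in every cKO library (limma adjusted p = 0.924). Cox14, which acts early in the making of the core subunit, was at 462, 431 and 489 in control thymus and 271, 291 and 207 in cKO thymus, again lower in every cKO library. Ndufaf1, a factor of the membrane arm, had thymus values of 7.87, 460.2 and 401 (control) and 169, 895 and 919.7 (cKO), with overlap. Cox17, the copper chaperone of complex IV, had a thymus fold change of 1.599 ± 0.71 (limma adjusted p = 0.332), from 157, 1509 and 1370.1 to 1425, 2863 and 2225.

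Between tissues, liver cells were compared with thymus cells within each genotype; these comparisons share libraries with the genotype comparisons. In control cells 0 members passed limma (0.605% of all genes did), edgeR called 0 (0.375%), and DESeq2 called 1, Ndufs6, higher in liver (3.89% of all genes). At an unadjusted p under 0.05 there were 9 higher and 0 lower in liver, against 8.75% and 3.94% of all genes. Groups were apart for 8 members with liver higher and 2 with liver lower, 8.33% and 2.08% against 9.55% and 5.83% of all genes. In cKO cells 0 members passed limma (0.222% of all genes), edgeR and DESeq2 called 0 (0.138% and 2.18%). At an unadjusted p under 0.05 there were 1 higher in liver, Atp5b, and 0 lower, against 4.22% and 3.38% of all genes. Groups were apart for 11 members with liver higher and 2 lower, 11.5% and 2.08% against 8.81% and 7.26%. The median fold change was 0.41 in control cells (0.28 over all genes) and 0.44 in cKO cells (0.09 over all genes), with 59 and 75 of 96 above 0 (59.5% and 53.7% of all genes). In control cells the median was 0.14 with TMM factors and 0.39 with median-of-ratios factors, and with edgeR and DESeq2, which also change the model and the input, it was -0.071 and -0.079.

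Of the members named for this comparison, Ndufs6 had a log2 fold change of 2.37 ± 0.78 in control cells (limma adjusted p = 0.204) and Cox4i1 one of 1.66 ± 0.64 (limma adjusted p = 0.280). Cox4i1 was at 677, 1309 and 321 in control thymus, below every control liver library. Ndufaf3, an early assembly factor of complex I, was at 359, 67.1 and 77.8 in control thymus and 1148, 524 and 787 in control liver (2.65 ± 0.92, limma adjusted p = 0.230), again apart. Atp5h was higher in control liver too (0.89 ± 0.36, limma adjusted p = 0.319). In cKO cells, Uqcrh and Uqcr10 were higher in every liver library than in every thymus library. Atp5s, which couples the stalk to the motor, went the other way, at 379, 728 and 469 in cKO thymus and 28.2, 87.9 and 89.5 in cKO liver.

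Ranked by group mean, 40 of the 96 tested members were highest in cKO liver (41.7%, against 21.6% of all tested genes), 28 in control thymus (29.2%, against 31.7%), 19 in cKO thymus (19.8%, against 25.8%) and 9 in control liver (9.38%, against 20.9%). The lowest mean was in control thymus for 38 (39.6%, against 30.8% of all tested genes) and in control liver for 30 (31.2%, against 22.6%). It was in cKO thymus for 23 (24%, against 23.1%) and in cKO liver for 5 (5.21%, against 23.5%). These are counts of means and take no account of the spread within groups.

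The spread among libraries of a group set what could be seen. The SD of log2(value + 1) over the 3 libraries had a median over members in thymus of 1.13 (control) and 0.76 (cKO), against 1.35 and 0.94 over all tested genes. The liver medians were 0.45 (control) and 0.41 (cKO), against 0.74 and 0.66. In thymus it was above 1 for 57 of 96 members (control) and 33 (cKO), and in liver for 12 (control) and 11 (cKO). Of the 13058 tested genes it was above 1 for 7956 (control) and 6231 (cKO) in thymus. In liver the counts over these genes were 5072 (control) and 4575 (cKO). Among the 30 members with a mean of at least 1000, the median SD in control thymus was 0.95, against 0.66 for all such genes, while in control liver it was 0.28, against 0.36, and in cKO liver 0.23, against 0.34. Control thymus library 1 was the lowest of the 12 for 30 members (31.25%, against 18.6% of all tested genes) and the highest for 15 (15.6%, against 13.6%). Control thymus library 2 was the highest for 20 (20.8%, against 15.8%) and the lowest for 19 (19.8%, against 14.6%). These libraries had the most genes without a read, 3528 and 2824, against 1782 in control thymus library 3. A fit without library 3 leaves them as the only control thymus libraries. Ndufv3, a complex I subunit of the flavin module, was at 6654, 59.0 and 595 in control thymus, and Ndufc1 at 2.26, 706 and 166.

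**Figure D5:**
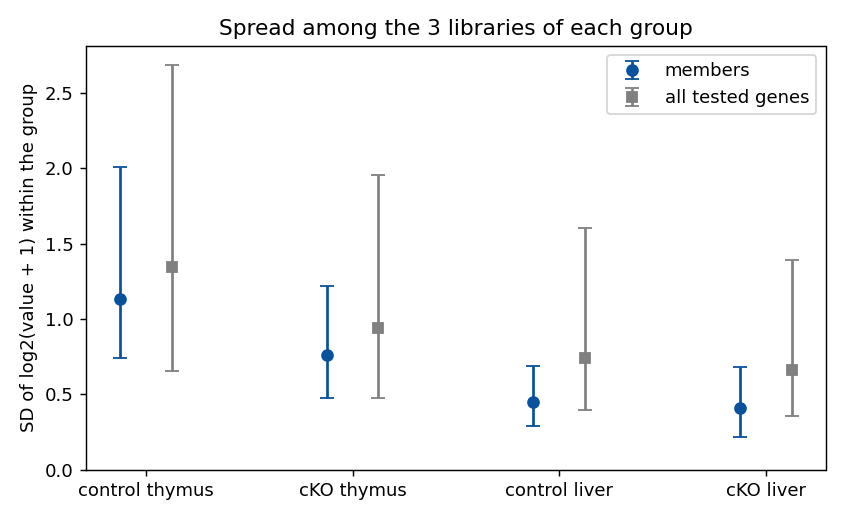
Points are medians over genes of the within-group SD of log2(value + 1), with bars from the lower to the upper quartile, for the 96 members (circles) and all 13058 tested genes (squares). Both sets are widest in control thymus, and the members lie below all genes in each group.

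Members did not move as 1 block from library to library. Over 12 libraries the median Pearson correlation was 0.11 across 4560 pairs of members. It was 0.09 across 926 pairs of the same complex or role, which include pairs of assembly factors of 1 complex. This is a description with groups and depth shared by all points, and pairs of other genes were not computed. The mean of the members' standardised levels ran from -0.59 in control thymus library 1 to 0.52 in cKO liver library 3. The genes outside the set most like this mean over the 12 libraries were Tmsb4x (r = 0.95), Cks1b (0.93), Hsp90ab1 (0.91), Cdk1 (0.91) and Hmgb2 (0.90), the highest of the tested genes once predicted genes were left out. This is a description.

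Split by promoter letters, the 23 members with an ETS core had a median fold change of 0.59 in liver, with 21 above 0, and the 57 tested members with a window and no core 0.32, with 43 above 0. In thymus the medians were 1.01 and 0.19, with 19 and 32 above 0. Of the stretches printed above, those of Cox6a1, Atp5h, Uqcrh, Ndufb7 and Ndufs3 belong to members with liver groups apart, and those of Sdhd, Cox8a and Atp5e to members with overlapping liver groups. All 3 cKO liver libraries lay above all 3 control liver libraries for 6 of the 23 members with the core and 11 of the 57 without. They lay below for 1 and 1, and over all tested genes the shares were 9.99% above and 8.66% below. In thymus 3 lay above and 2 below with the core, and 4 and 2 without, against 7.6% and 6.89% of all genes. Fold changes of all genes were not split by these letters. For YY1 the thymus medians were 0.93 with the motif (12 of 13 above 0) and 0.30 without (39 of 67), and the liver medians 0.53 and 0.47. For NRF1 the thymus medians were 0.35 and 0.45, and the liver medians 0.18 and 0.51. No test was run on these splits.

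The subunits encoded in mitochondrial DNA (7 in the table: mt-Nd1, mt-Nd2, mt-Nd4, mt-Nd5, mt-Nd6, mt-Cytb and mt-Co1) were read beside the nuclear members. None passed limma in any comparison. At an unadjusted limma p under 0.05, 2 were lower in liver than thymus in control cells and 3 in cKO cells, against 3.94% and 3.38% of all genes. In liver 1 of 7 had a fold change above 0 between cKO and control, with a median of -0.27, and in thymus 2 of 7, with a median of -0.05. The fold change of liver against thymus was below 0 for all 7 in both genotypes (medians -0.51 and -0.56). Of all genes, 59.5% (control) and 53.7% (cKO) were above 0. The 7 share libraries and are not independent observations. mt-Co1, the catalytic core of complex IV, was at 407935, 228601 and 259842 in control liver and 313193, 193987 and 219698 in cKO liver. The ratio of the summed 7 to the summed nuclear members in thymus was 9.18, 5.82 and 4.71 (control) and 7.18, 4.98 and 4.89 (cKO), and in liver 7.21, 4.28 and 4.02 (control) and 4.13, 2.58 and 3.31 (cKO). Library 1 had the highest ratio in each group, and the cKO liver ratios overlapped those of control liver.

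Related genes outside the name rule were read in the same fits. Cyc1 was at 3558, 169 and 26103 in control thymus and 1902, 1771 and 1709 in cKO thymus. In liver it was at 2669, 892 and 964 (control) and 927, 887 and 4448 (cKO), and both pairs of groups overlapped. Usmg5 was at 216, 252 and 292 in control liver and 299, 560 and 821 in cKO liver, with the groups apart. In liver the fold change was above 0 for 15 of 27 assembly factors outside the name rule, 8 of 17 citric acid cycle genes and 11 of 18 carrier, import and cristae genes, with medians of 0.08, -0.01 and 0.11 and 0 called by limma. Of 20 regulators of mitochondrial genes, 0 passed in thymus or liver alone and 1 did over both tissues: Hif1a, a factor known to favour glycolysis over respiration, fell by 1.12 on the log2 scale (SE 0.27, limma adjusted p = 0.0323). It was at 4185, 3092 and 4273 (control thymus) and 2721, 1598 and 1344 (cKO thymus), and in liver at 3901, 3719 and 3482 (control) and 1222, 2239 and 1668 (cKO), lower in 6 of 6 cKO libraries than in every control library. Its adjusted p was under 0.05 in 14 of 23 alternatives and at most 0.106 in the others. Slc25a4, an ADP/ATP carrier that hands ATP out of the mitochondrion, rose by 1.61 over both tissues (SE 0.42, limma adjusted p = 0.0498), a call that held in 4 of 23 alternatives. It was at 326, 302 and 434 in control thymus and 954, 1066 and 1148 in cKO thymus, and at 329, 493 and 1429 in control liver and 1856, 1971 and 1899 in cKO liver, with the groups apart in both tissues. Gabpa, whose product binds ETS cores in promoters of this kind, was at 2739.8, 1337 and 3283 in control thymus and 6162, 2909.9 and 4579 in cKO thymus, with overlap (0.92 ± 0.38, limma adjusted p = 0.297). Its liver values were 5339, 4291 and 4343 in control and 4388, 3185 and 3783 in cKO cells, also with overlap (-0.30 ± 0.38, limma adjusted p = 0.999). The difference of the fold changes, liver minus thymus, was -1.23 ± 0.53 (limma adjusted p = 0.911). Its exons share bases with those of the member Atp5j (12.7% of the exon bases of Atp5j). Gabpb1, of a partner subunit of GABP, was at 2049, 1617 and 1645 in control thymus and 717, 889 and 634 in cKO thymus. In liver it was at 1336, 1023 and 1575 (control) and 281, 907 and 970 (cKO), apart in both tissues (-1.15 ± 0.39 over both, limma adjusted p = 0.155). For Gabpb2 the fold change over both tissues was -0.011 ± 0.195 (limma adjusted p = 0.988).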

How the data were processed

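RNA of CD1d-Tetramer+ YFP+ iNKT1 cells was extracted with RNeasy kits and made into libraries with the Nugen Ovation Ultralow system, per the labels' protocols. Trimmomatic 0.33, TopHat2 2.1.0, STAR, HTSeq 0.6.1 and DESeq2 are named with the mm10 build, per the submitters' processing notes, with no role or order, and strand use is not stated. The deposited table holds a signal per gene, a read number that the authors adjusted to a common library size. Its column totals were 21.4 to 32 M. Of its 14004 identifiers, 13359 matched a symbol (95.4%).

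The members and gene lists were chosen with earlier results of these data known. Since the values are not whole counts, the test planned for them, limma (version 3.58.1, R 4.3.3), was used on log2(value + 1) with 1 mean per group over all 12 libraries, a trend of variance with level and Benjamini-Hochberg adjustment over the 13058 genes that reached a value of 10 in 3 or more libraries (946 did not). Fold changes are on that scale, which understates those of low genes. The fit had 8 residual and 10.7 prior degrees of freedom. An adjusted p under 0.05 counted as passed. Whole reads were recovered from the steps of the values by inverting a fitted adjustment in all 12 columns. Of the recovered values, 94.8% (88.3% to 100% per column, lowest in cKO thymus library 3) lay no more than 0.1 from a whole number. edgeR 4.0.16 and DESeq2 1.42.0 were run on these reads as alternatives, beside other scalings, pseudocounts, filters and left-out libraries. The fitting steps were tested on simulated data. Promoter sequences and motif counts come from RefSeq windows on GRCm38.p6.

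Named by rule were, in each complex and among the factors, the 2 members with the highest level per length, those with the smallest unadjusted p in the genotype comparisons of thymus and liver and in the tissue comparison of control cells, tissue isoforms, and members that did not pass the filter. The other members given with values, such as Ndufa2, Ndufs3, Ndufs8, Ndufa8, Cox7c, Cox17, Atp5o, Atp5mpl, Atp5e, Atp5s, Ndufv3 and Ndufc1, were chosen after their values were seen. Values of 1 member that the rule names are not reported here.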

Additional observations from a re-analysis of the deposited data

How the results depend on the processing

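Of 1110 alternatives over 47 results, 1074 kept the direction and the side of the threshold, or a value within the spread. Of these alternatives 826 were for single genes, and 808 of them were kept. No member passed in the main fit, and leaving out a library of other groups does not change a fold change. The count therefore does not measure how stable a value is. For Ndufs3 in thymus, the kept fold changes ran from 0.75 to 4.75. In thymus, DESeq2 called 4 members and leaving out 1 library at a time gave 0 to 4 (4 of 96, 4.17%, without control thymus library 3, where 542 of 12920 genes, 4.2%, were called). Over both tissues DESeq2 called 5 and leaving out 1 library gave 0 to 2 (2 of 96, 2.08%, without control thymus library 3, where 547 of 12920 genes, 4.23%, were called). Array weights called 1 member in liver (Cox6a2, beside 4.75% of all genes), and DESeq2 called 1 in the tissue comparison of control cells. The members' median in thymus was 0.085 with TMM rescaling, -0.015 with edgeR, -0.040 with DESeq2 and 0.12 to 0.58 with 1 library left out. For the difference between tissues it was 0.32 with TMM, 0.32 with edgeR, 0.36 with DESeq2 and 0.34 without control thymus libraries 1 and 2. Between tissues of control cells it was 0.14 with TMM, -0.071 with edgeR, -0.079 with DESeq2 and 0.14 without control thymus libraries 1 and 2, where Atp5d turned to -0.095. The causes were not tested. Over all genes, calls ranged from 3 to 619 in thymus, 9 to 620 in liver, 93 to 757 over both tissues, 1 to 112 for the difference, 8 to 478 between tissues of control cells and 3 to 263 of cKO cells. A fit on the compared groups alone gave no value for both tissues and for the difference. Deviations of libraries with the same replicate number had correlations of -0.0958 to 0.0803, none above 0.1, so the numbers were not taken to pair the samples. The best match carried the same number in 12 of 18 comparisons, among them all 3 of control liver with cKO liver, a hint from the data and not the design. With the replicate block 0 members were called in each comparison, with medians of 0.34 in thymus and 0.45 in liver, and all-gene calls of 81 and 71. In the 2 shallowest libraries, 1 read is worth over 6 units, which limits what can be seen in members of low level.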
